A study of Mus musculus with 6 samples.

Results

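The genes described here are 9 markers that are widely used to recognize pericytes, among them both genes of the vascular ATP-sensitive potassium (KATP) channel. They were chosen by symbol, as *Cspg4*, *Mcam*, *Pdgfrb*, *Kcnj8*, *Abcc9*, *Higd1b*, *Ndufa4l2*, *Cox4i2* and *Steap4*, and all 9 were found among the 20327 gene symbols of the count files. The comparison asked whether they move together between IL-11+ and IL-11- stromal cells of the inflamed colon.

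All cells came from C57BL/6 mice carrying the *Il11-Egfp* reporter, a bacterial artificial chromosome transgene kept as a single selected line, in which *Il11* regulatory sequence drives *Egfp*. Male mice aged 9 to 15 weeks drank 1.5% dextran sulfate sodium (DSS) for 5 days, then regular water, and colons were taken on day 7. Live (DAPI-negative) Ter119-CD45-CD31-EpCAM- cells were sorted into an EGFP+ group and an EGFP- group, called IL-11+ and IL-11- fibroblasts after the study, with 3 libraries in each. The EGFP+ sort was not fully pure according to the methods, both groups had received DSS, and no untreated group was part of the comparison. The gate selected against endothelial, epithelial, blood and immune cells. It did not select against pericytes, smooth muscle, glia or interstitial cells, so the EGFP- group can hold any of these beside fibroblasts.

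Libraries were made by 5′Tag-seq, which reads tags from the 5′ side of polyadenylated transcripts. Values are listed in the order of replicates 1, 2 and 3. The totals were 1057170, 1078179 and 1169817 tags for IL-11- against 1046538, 1022851 and 1049048 for IL-11+ libraries. *Il11* itself checked the labels, with 28, 51 and 89 tags in the IL-11- libraries against 1357, 732 and 2658 in the IL-11+ libraries. Levels below are normalized CPM, that is tags scaled to library size with TMM factors, given as mean ± SD with n = 3. A call required an adjusted p under 0.05 together with more than a 2-fold difference. Same-numbered libraries were paired as an alternative (the replicate block). The methods name 3 mice, and p-values measure the spread among these libraries.

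Pericytes sit on the outside of capillaries and, together with vascular smooth muscle cells, form the mural cells of blood vessels. They are recruited by platelet-derived growth factor from endothelium through the receptor encoded by *Pdgfrb*, and they carry the surface proteins encoded by *Cspg4* and *Mcam*. Their KATP channels, built from the pore subunit of *Kcnj8* and the sulfonylurea receptor of *Abcc9*, open when cellular ATP falls and relax the vessel. None of these genes belongs to pericytes alone, and *Pdgfrb* in particular is also expressed by fibroblasts.

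The 9 genes did not move together. *Cspg4*, *Mcam*, *Ndufa4l2* and *Cox4i2* were called lower in IL-11+ fibroblasts, and *Higd1b*, with too few tags for the test, had 30 tags in IL-11- and 1 tag in IL-11+ libraries. *Pdgfrb* and *Steap4* were not called and had log2 fold changes of -0.38 and -0.06. Both KATP genes lay on the other side, with log2 fold changes of 0.71 for *Kcnj8* and 0.66 for *Abcc9*, adjusted p-values under the threshold and a fold change under 2. In RNA from sorted populations, fewer cells of a type and less RNA per cell cannot be told apart.

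Of the 9 genes, 8 passed the filter of at least 10 tags in at least 3 libraries. Among these 8, 4 were called lower and 0 higher, where 6.37% of all 9334 tested genes were called lower and 3.44% higher. With DESeq2, which called 483 of all tested genes lower and 284 higher, the counts were also 4 and 0. When any of the 3 IL-11- libraries was left out, 2 were called lower, because *Ndufa4l2* and *Cox4i2* then missed the filter, and on the genes that pass with all 6 libraries the count was 4 in each of these fits. With the adjusted p alone, 2 genes were higher, where 6.84% of all tested genes were. *Mcam*, *Ndufa4l2* and *Cox4i2* passed the filter through their IL-11- libraries alone, a route that favours genes with few tags in IL-11+ fibroblasts. *Cspg4*, *Pdgfrb*, *Kcnj8*, *Abcc9* and *Steap4* would have passed with the libraries of either group. The 3 IL-11+ libraries were below the 3 IL-11- libraries for 5 of the 9 genes, above them for 1, and overlapped with them for 3. Over all tested genes these shares were 16.7% below and 14.5% above.

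**Figure D1:**
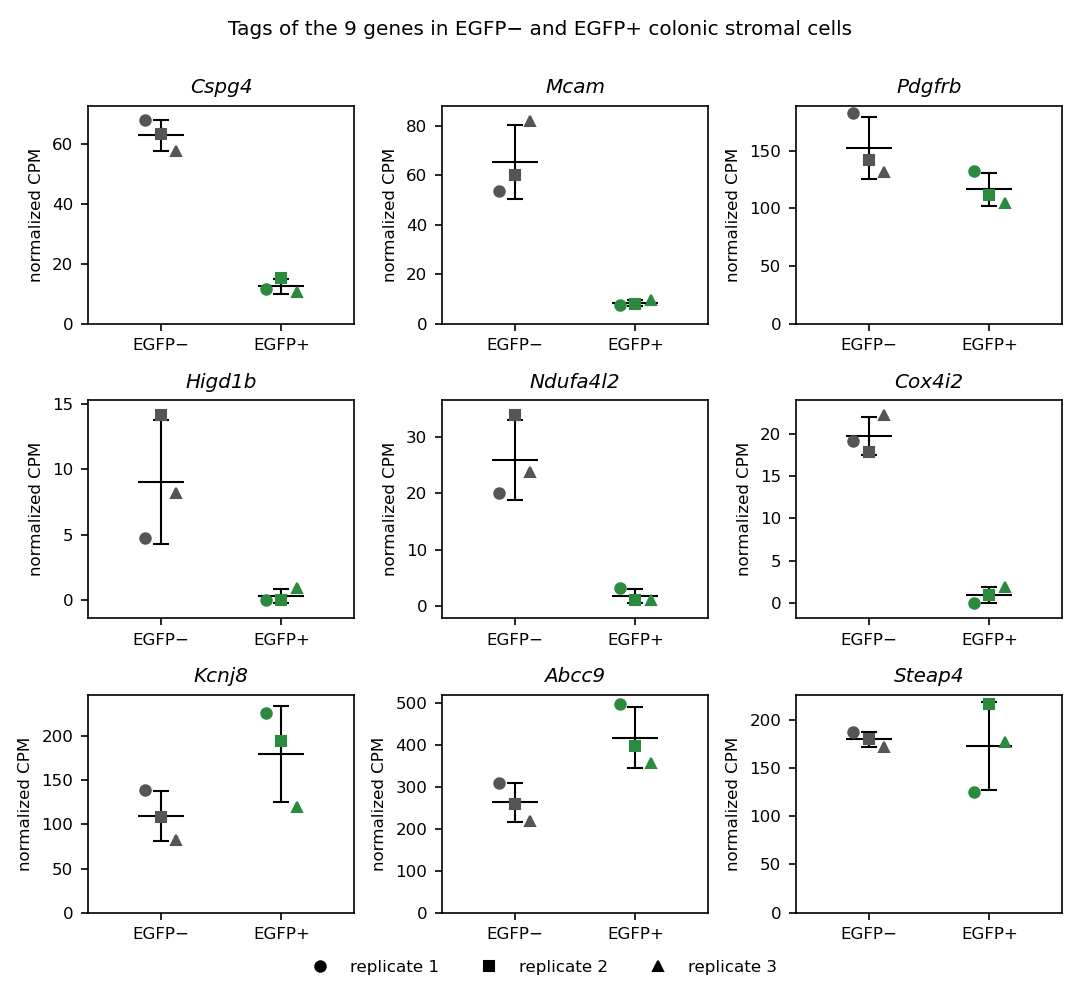
Normalized CPM (vertical axes, linear) of the 9 genes in EGFP- (IL-11-) and EGFP+ (IL-11+) libraries, with a symbol for each replicate number, a long bar for the group mean and whiskers of 1 SD (n = 3). *Cspg4*, *Mcam*, *Higd1b*, *Ndufa4l2* and *Cox4i2* are lower in all 3 EGFP+ libraries, *Abcc9* is higher in all 3, and *Pdgfrb*, *Kcnj8* and *Steap4* overlap between the groups.

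*Cspg4* encodes the surface proteoglycan NG2, which binds matrix and growth factors. It had 71, 67 and 70 tags in the IL-11- libraries against 11, 15 and 11 in the IL-11+ libraries. All IL-11+ libraries lay far below all IL-11- libraries, and the libraries of each group lay close together. The level was 62.8 ± 5.16 in EGFP- and 12.5 ± 2.47 in EGFP+ cells (SD, n = 3), and the log2 fold change was -2.32 (SE 0.261, adjusted p = 4.44e-06, edgeR, quasi-likelihood test, Benjamini-Hochberg adjustment). The gene lies on the plus strand of chromosome 9, from 56865033 to 56899870 in GRCm38.

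*Mcam*, also on the plus strand of chromosome 9 (44134469 to 44142727), encodes the adhesion molecule CD146 of mural and endothelial cells. Its counts were 56, 64 and 100 tags in the IL-11- libraries against 7, 8 and 10 in the IL-11+ libraries. Replicate 3 was the highest in both groups, and the groups were far apart. *Mcam* stood at 65.3 ± 14.96 and 8.36 ± 1.08 normalized CPM (SD, n = 3), and the log2 fold change was -2.95 (SE 0.295, adjusted p = 1.16e-06 by edgeR). Within same-numbered libraries, the IL-11- level was 7.21, 7.42 and 8.61 times the IL-11+ level, against 5.81, 4.14 and 5.48 times for *Cspg4*.

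*Pdgfrb*, the receptor gene (chromosome 18, 61045150 to 61085061, plus strand), differed much less. It had 191, 151 and 160 tags in the IL-11- libraries against 125, 110 and 110 in the IL-11+ libraries. After scaling, the groups just touched, with IL-11+ replicate 1 at 132 and IL-11- replicate 3 at 131 normalized CPM. The IL-11+ library was the lower of each same-numbered pair, at 0.726, 0.785 and 0.798 times its partner. The levels were 152 ± 26.9 and 116 ± 14.4 (SD, n = 3), and the log2 fold change was -0.38 (95% interval -0.76 to -0.01), with an adjusted p of 0.176 by edgeR and 0.0852 with the replicate block. A p that misses the threshold does not show that values did not differ, but a fall of the size seen in *Cspg4* or *Mcam* lies outside that interval.

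The next 3 genes encode small proteins of mitochondria. *Ndufa4l2* encodes a relative of the respiratory chain protein NDUFA4, and its transcription is induced by low oxygen in many cells. It had 21, 36 and 29 tags in the IL-11- libraries against 3, 1 and 1 in the IL-11+ libraries. Every IL-11+ library was at or under 3 tags, while the lowest IL-11- library had 21. The sums of 86 and 5 tags gave a ratio of 15.4 between IL-11- and IL-11+ libraries, with an exact 95% counting interval of 6.35 to 48.6. The fitted log2 fold change was -3.85 (SE 0.511, adjusted p = 2.77e-05 by edgeR), a value that depends on the small count added to each library at such low levels. *Ndufa4l2* lies on the plus strand of chromosome 10 (127514967 to 127517154) and overlaps *Shmt2* on the opposite strand. Among the other members, *Mcam* overlaps *Gm10687* and *Abcc9* overlaps *5330439B14Rik*, also on the opposite strand. The tags were mapped in a single orientation, which keeps opposite strands apart.

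*Cox4i2* (chromosome 2, 152754173 to 152765037, plus strand) encodes the alternative form of a cytochrome c oxidase subunit, known for its part in oxygen sensing in lung vessels and airways. Its counts were 20, 19 and 27 tags in the IL-11- libraries against 0, 1 and 2 in the IL-11+ libraries. The gene was thus near the limit of detection in the IL-11+ libraries and even across the IL-11- libraries, at 19.7 ± 2.2 normalized CPM (SD, n = 3). The summed tags, 66 against 3, gave a ratio of 19.7 with a counting interval of 6.45 to 97.9, and the adjusted p was 5.46e-05 by edgeR.

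*Higd1b* (chromosome 11, 102835849 to 102838040, plus strand) is a member of a family of hypoxia-induced mitochondrial proteins and is counted among the more selective pericyte transcripts. It had 5, 15 and 10 tags in the IL-11- libraries against 0, 0 and 1 in the IL-11+ libraries. The groups did not overlap, but IL-11- replicate 1 was low and the filter was missed by 1 library. The summed tags gave a ratio of 26.8 between IL-11- and IL-11+ libraries, with a wide counting interval of 4.46 to 1095. Where the filter was relaxed to 10 tags in at least 1 library, *Higd1b* was called lower, with an adjusted p of 0.00607 by edgeR. These intervals cover counting error only, since any tags that are PCR copies would not be separate molecules.

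The KATP genes stood apart from the 5 genes that were lower. *Kcnj8* encodes the pore-forming subunit of the channel. It had 145, 115 and 100 tags in the IL-11- libraries against 213, 191 and 125 in the IL-11+ libraries. The groups overlapped, because IL-11+ replicate 3 (119 normalized CPM) was below IL-11- replicate 1 (138 normalized CPM). The IL-11+ library was nevertheless the higher of each same-numbered pair, by 1.63, 1.79 and 1.45 times. The level was 109.6 ± 28.2 in EGFP- and 179.6 ± 54.7 in EGFP+ cells (SD, n = 3), and the log2 fold change was 0.71 (SE 0.227, 95% interval 0.24 to 1.19). The adjusted p of *Kcnj8* was 0.0394 by edgeR and 0.000623 with the replicate block.

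*Abcc9* encodes the regulatory subunit that binds nucleotides and sulfonylureas, and it had more tags than any other of the 9 genes. Its counts were 325, 275 and 267 tags in the IL-11- libraries against 469, 391 and 373 in the IL-11+ libraries. The lowest IL-11+ library was above the highest IL-11- library, at 356 against 310.3 normalized CPM. In same-numbered libraries the IL-11+ level was 1.602, 1.53 and 1.62 times the IL-11- level, which is an even difference across the pairs. The levels were 263 ± 45.7 and 417 ± 72.7 (SD, n = 3), and the log2 fold change was 0.66 (SE 0.182, 95% interval 0.28 to 1.05), with an adjusted p of 0.0167 by edgeR and 0.000307 with the replicate block. With the block and the adjusted p alone, 9.33% of all tested genes were higher.

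Neither KATP gene reached a fold change of 2, although the upper end of both intervals lies beyond it. The adjusted p of *Kcnj8* was close to the threshold and moved across it, to 0.0576 with DESeq2 and 0.0627 with scaling by library size only. When a library was left out, it was 0.12 without IL-11- replicate 2, 0.155 without IL-11- replicate 3, 0.192 without IL-11+ replicate 1 and 0.134 without IL-11+ replicate 2, by edgeR on the same genes. For *Abcc9* it was 0.0706 without IL-11- replicate 2, 0.0676 without IL-11- replicate 3 and 0.0831 without IL-11+ replicate 1. Over all 21 alternative settings the log2 fold change of *Kcnj8* stayed between 0.52 and 0.94, and that of *Abcc9* between 0.53 and 0.80.

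*Steap4* encodes a metalloreductase of endosomes and the cell surface that responds to inflammatory cytokines, and it lies on chromosome 5 (7960457 to 7982213, plus strand). It had 196, 191 and 209 tags in the IL-11- libraries against 118, 213 and 185 in the IL-11+ libraries. The IL-11- libraries were nearly equal, while IL-11+ replicate 1 was the lowest and IL-11+ replicate 2 the highest of all 6. *Steap4* stood at 179.6 ± 7.77 and 173 ± 45.7 normalized CPM (SD, n = 3), and the log2 fold change was -0.06 (95% interval -0.45 to 0.34, adjusted p = 0.894 by edgeR). Its sign depended on IL-11+ replicate 1, without which the value was 0.14.

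Ratios of tags inside a library need no scaling between libraries, and they were taken relative to *Abcc9* to compare libraries, not to compare the levels of genes. *Kcnj8* had 0.446, 0.418 and 0.375 tags for each *Abcc9* tag in IL-11- and 0.454, 0.488 and 0.335 in IL-11+ replicates 1, 2 and 3. The means were 0.413 ± 0.0361 and 0.426 ± 0.0805 (SD, n = 3), with IL-11+ libraries on both sides of the IL-11- range, and 3 libraries a group are too few to show that this ratio was stable. *Pdgfrb* had 0.588, 0.549 and 0.599 tags for each *Abcc9* tag in IL-11- and 0.267, 0.281 and 0.295 in IL-11+ libraries. The libraries of each group lay close together in this ratio and the groups lay apart. For *Cspg4* the same ratio was 0.241 ± 0.0219 in EGFP- and 0.0304 ± 0.0075 in EGFP+ cells (SD, n = 3). *Steap4* had 0.693 ± 0.0899 and 0.431 ± 0.157 tags for each *Abcc9* tag (SD, n = 3), with IL-11+ replicate 1 the lowest at 0.252. Since *Abcc9* itself was higher in all 3 IL-11+ libraries, dividing by it lowers the IL-11+ ratio of any gene that was level or lower. The groups of *Steap4* overlapped in level and came apart in this ratio, so that separation restates the difference of *Abcc9*. Those of *Pdgfrb* also overlapped slightly in level, so their separation in this ratio restates the difference of *Abcc9* in part.

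Summed over the 9 genes, the opposite differences cancelled. The sums were 983, 879 and 798 normalized CPM in IL-11- and 1003, 944 and 780.1 in IL-11+ replicates 1, 2 and 3, and the groups overlapped. *Abcc9* was the most abundant member and *Steap4*, *Kcnj8* and *Pdgfrb* followed by tag count, so that a summed score of this marker list was carried by the 4 genes that were not called.

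The members also varied within the groups. *Pdgfrb*, *Kcnj8* and *Abcc9* were highest in replicate 1 and lowest in replicate 3 of both groups, an order shared by 4.37% of all tested genes. *Mcam* had the reverse order in both groups, as did 4.61% of the tested genes. *Cspg4*, *Ndufa4l2*, *Cox4i2* and *Steap4* had a different order of normalized CPM in each group.

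Likeness to other genes was measured as the root mean square (RMS) difference of log2 CPM, centred on each gene's mean over the 6 libraries, among genes whose mean count was 30 tags or more. With 2 groups of 3 libraries, the measure is set largely by the difference between the groups. The log2 CPM used here had a prior count of 2 added, which compresses the differences of genes with few tags. *Kcnj8* and *Abcc9* were 0.18 apart, and of 5062 genes 17 lay closer to *Kcnj8* and 86 closer to *Abcc9*. The genes nearest to *Kcnj8* were *Mt1*, *Erlec1* and *Serpina3n* (0.08 for *Mt1*), and those nearest to *Abcc9* were *Ctsl*, *Atg12* and *Bcl2l11* (0.04 for *Ctsl*). *Cspg4* lay nearest to *P2ry14*, at 0.08, followed by *Pgm5* and *Prss23*. *Mcam* lay nearest to *Ecm2*, with an RMS difference of 0.08. For *Cox4i2* the nearest genes were *Aoc3*, *Zfhx4* and *Clec3b*, and for *Ndufa4l2* they were *Rgs5*, *Mrvi1* and *Pcolce2*, though at a larger distance (0.37 for *Rgs5*). The fitted log2 fold changes of *Aoc3*, *Zfhx4* and *Clec3b* (-3.13, -2.96 and -2.71) were less negative than that of *Cox4i2* (-4.14). Those of *Rgs5*, *Mrvi1* and *Pcolce2* (-3.11, -3.42 and -2.73) were less negative than that of *Ndufa4l2* (-3.85). *Pdgfrb* was nearest to *Kif1b*, *Ccpg1* and *Kansl1l*, and *Steap4* to *Scpep1*, *Npc1* and *Snrnp200*, genes with log2 fold changes near those of these members. *Cspg4* and *Pdgfrb* were 0.92 apart. Of the other genes, 767 lay closer to *Cspg4* than *Pdgfrb* did, and 4867 lay closer to *Pdgfrb* than *Cspg4* did.

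*Kcnj8* and *Abcc9* are neighbours in the genome. *Kcnj8* (GRCm38 chromosome 6, 142564837 to 142571614, minus strand) has up to 3 exons in a transcript. *Abcc9* lies upstream of it on the same strand, from 142587862 to 142702315, with up to 41 exons in a transcript. The gap between them is 16247 bp and holds 0 annotated genes. None of the 9 genes shared a 50-nt stretch of its first 300 nt with another annotated gene, so tags of that length from there would map to a single gene.

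Promoter sequence from RefSeq (GRCm38.p6) was at hand for *Cspg4*, *Mcam*, *Kcnj8*, *Abcc9* and *Steap4*, and not for *Pdgfrb*, *Higd1b*, *Ndufa4l2* and *Cox4i2*. The 250 bases before the start were searched on both strands for TGANTCA (AP-1), TGGGAA (RBPJ), the CArG box (SRF), ACGTG (hypoxia response) and GGGCGG (GC box), which 6.75%, 21.6%, 1.47%, 16.6% and 32.7% of all 32851 promoters hold. *Kcnj8* held none of the 5, *Abcc9* held 1 TGGGAA and 1 GC box, *Steap4* held 1 TGGGAA, and *Cspg4* and *Mcam* held 2 and 5 GC boxes. No AP-1, CArG or hypoxia motif was present in any of these 5 windows. The GC content of the 250 bases was 49.2% for *Kcnj8* and 66.8% for *Abcc9*, with a median of 52.4% over all promoters. The sequences of the KATP genes are shown because they are neighbours and encode subunits of the same channel. Each runs 5′ to 3′ on the minus strand, at chr6:142571615-142571864 for *Kcnj8* (250 bases) and chr6:142702316-142702524 for *Abcc9* (209 bases, leaving out bases that an annotated transcript includes). Capitals mark the motifs, which did not overlap, with the GC box read on the other strand as CCGCCC. A match is a description of these letters and not a binding site.
Kcnj8: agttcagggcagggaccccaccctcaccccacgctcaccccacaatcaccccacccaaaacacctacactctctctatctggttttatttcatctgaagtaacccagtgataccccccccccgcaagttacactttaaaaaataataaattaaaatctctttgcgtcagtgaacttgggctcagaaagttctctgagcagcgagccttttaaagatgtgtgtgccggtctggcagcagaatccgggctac
Abcc9: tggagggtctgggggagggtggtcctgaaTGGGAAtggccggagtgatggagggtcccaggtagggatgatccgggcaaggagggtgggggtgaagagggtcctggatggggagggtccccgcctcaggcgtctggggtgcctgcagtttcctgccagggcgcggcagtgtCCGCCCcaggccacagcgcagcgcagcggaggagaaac

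Genes listed as paralogues of the members were measured in the same libraries. Of the 10 in the counts, 7 were tested, with 0 lower and 1 higher by edgeR. The lower count was 1 without IL-11+ replicate 3 or with the block and no fold threshold, and the higher count was 2 without IL-11- replicate 3, without IL-11+ replicate 3 or with no filter, and 3 with no fold threshold, with or without the block. The mitochondrial paralogues did not follow their relatives. *Ndufa4* had 0.52 (log2 fold change, adjusted p = 0.0462 by edgeR, under 2-fold), *Cox4i1* -0.11 (adjusted p = 0.719 by edgeR) and *Higd1a* 0.16 (adjusted p = 0.704 by edgeR). *Abcc8*, the other sulfonylurea receptor gene, had 1, 0 and 2 tags in IL-11- and 0 in each IL-11+ library, so *Abcc9* was the receptor gene that these cells expressed at a measurable level. *Pdgfra*, the receptor paralogue that marks fibroblasts, stood at 0.22 (SE 0.168, adjusted p = 0.449 by edgeR). Of the family of *Steap4*, *Steap2* had 0.90 (adjusted p = 0.0218 by edgeR, under 2-fold) and *Steap3* -0.81 (adjusted p = 0.0877 by edgeR and 0.00319 with the replicate block), while *Steap1* was too low to test. *Alcam*, a relative of *Mcam*, was called higher at 2.01, opposite to *Mcam*, having passed the filter through IL-11+ libraries alone. *Cspg5*, listed for the name it shares with *Cspg4* and not established as its paralogue, had at most 2 tags in a library.

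Most of the other mural cell genes that could be tested were lower as well. All 15 of the 18 listed genes that passed the filter were called lower (median log2 fold change -3.11), 11 of them having passed through IL-11- libraries alone. With the filter applied again, the count was 8 without IL-11- replicate 1 or 3 and 9 without IL-11- replicate 2, and on the 6-library genes it was 13 to 15. *Rgs5*, the most abundant, had 1951, 1700 and 1800 tags in the IL-11- libraries against 186, 174 and 206 in the IL-11+ libraries. *Rgs4*, *Notch3*, *Vtn*, *Rasl12* and *Ano1* fell more steeply than *Cspg4*, and *P2ry14* (-2.34), *Lamc3* (-2.11), *Art3* (-1.90), *Heyl* (-1.88), *Anpep* (-1.59), *Gucy1a1* (-1.25) and *Gucy1b1* (-1.12) fell about as much or less. *Gja4* (49, 56 and 44 tags against 0, 0 and 2) and *Angpt2* (17, 22 and 11 against 0, 0 and 2) were almost absent from IL-11+ fibroblasts, and *Tbx18*, *Foxs1* and *Ebf2* were not tested, with overlapping groups for *Tbx18* and *Foxs1*. The summed level of the list was 2958, 2538 and 2543 normalized CPM in IL-11- and 402, 405 and 448 in IL-11+ replicates 1, 2 and 3, while *Kcnj8* and *Abcc9* lay on the other side.

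**Figure D2:**
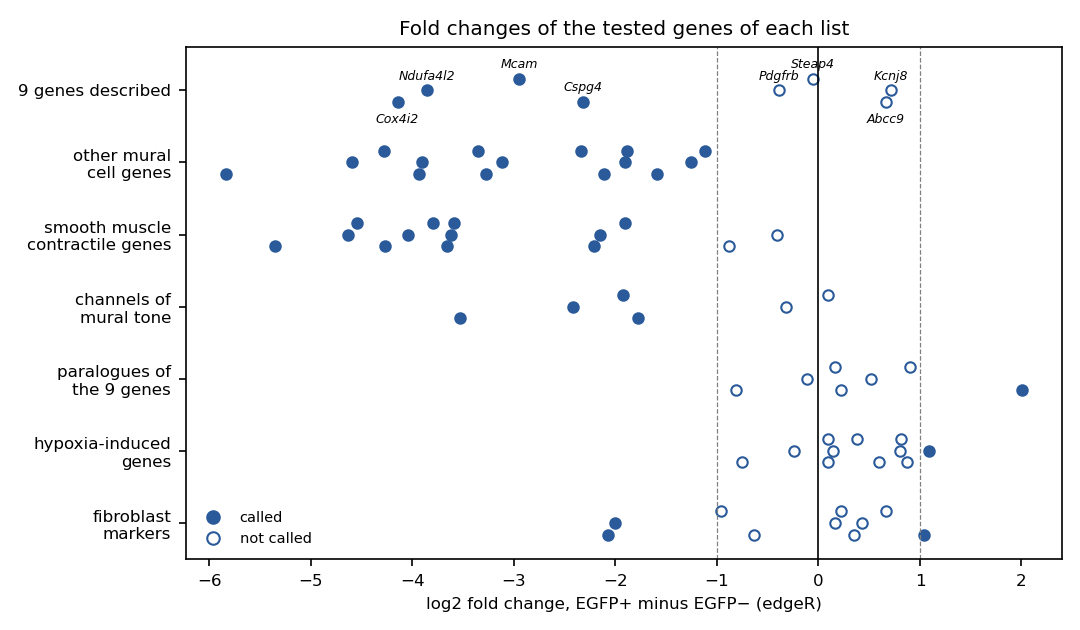
Log2 fold changes (horizontal axis, EGFP+ minus EGFP-, edgeR) of the tested genes of 7 lists, a point per gene, filled where called, with dashed lines at a 2-fold difference. Of the 8 tested genes in the top row, 4 lie at -2.32 or lower, and the other 4 lie between -0.38 and 0.71. The other mural cell genes lie between -5.84 (*Gja4*) and -1.12 (*Gucy1b1*). The smooth muscle genes lie between -5.35 (*Cnn1*) and -0.41 (*Smtn*).

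Other genes that set mural tone gave a mixed picture. Of 13 listed channel and exchanger genes in the counts 6 were tested, and 4 were called lower (median -1.85). These were the calcium-activated potassium channel genes *Kcnma1* (-1.93) and *Kcnmb1* (-2.42), *Trpc6* and *Cacna1h*, and these 4 had passed the filter through IL-11- libraries alone. *Kcne4* (0.09) and *Cacna1c* (-0.32), which would have passed with either group, were not called, so the filter shaped this count. It was 1 when any of the 3 IL-11- libraries was left out, 3 or 4 on the 6-library genes, and 7 with no filter or with 10 tags in at least 1 library. Of the ligands of *Pdgfrb* and its relative, *Pdgfa* (-1.58) and *Pdgfc* were called lower and *Pdgfd* (-0.55) was not, while *Pdgfb* had 3, 1 and 6 tags in IL-11- and 0 in each IL-11+ library. Of the 4 genes tested in that list, 3 had passed the filter through IL-11- libraries alone, and the count of 2 was 1 when any of the 3 IL-11- libraries was left out. Of 11 tested hypoxia-induced genes, 0 were called lower and 1 higher by edgeR (median 0.38), unlike *Ndufa4l2* and *Cox4i2*. *Pgk1* (1.09) was called, while *Slc2a1* (0.81, adjusted p = 0.00519 by edgeR), *Adm* (0.87, 0.016) and *Ndrg1* (0.60, 0.019) were under 2-fold, *Ldha* (0.38) was not called, and neither were *Egln1* (-0.24) and *Bnip3* (-0.75, adjusted p = 0.244 by edgeR and 0.0181 with the replicate block). The lower count was 1 without IL-11- replicate 3, without IL-11+ replicate 1, and with the block and no fold threshold. The higher count was 0 without IL-11+ replicate 1 or with library size only, 2 without IL-11+ replicate 2 or 3, 4 with the adjusted p alone, and 5 with the block and no fold threshold.

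Markers of other cell types that the gate leaves in moved with *Cspg4* and *Mcam*. Of 14 tested smooth muscle genes, 12 were called lower (median -3.64), 6 of the 14 having passed the filter through IL-11- libraries alone, and their summed level was 3699, 4611 and 5552 normalized CPM in IL-11- and 512, 681 and 783 in IL-11+ replicates 1, 2 and 3. *Myh11* was the most abundant, with 850, 943 and 1332 tags against 18, 18 and 84, followed by *Acta2* (-3.80), *Tpm1* (-0.88, under 2-fold) and *Tagln* (-3.62). Markers of interstitial cells of Cajal were led by *Ano1*, which was also counted among the other mural cell genes. They were lower for 4 of 5 genes (*Ano1*, *Kit*, *Etv1* and *Hand1*, but not *Gpr20*), with sums of 305, 191 and 289 against 38.2, 30.5 and 57.2. Of these 5 genes, 4 had passed the filter through IL-11- libraries alone, and the count was 1 without IL-11- replicate 1 and 2 without IL-11- replicate 2 or 3. Of the glial markers, *Sox10* (2, 3 and 5 tags in IL-11- libraries) and *S100b* (3, 9 and 4 tags) were at 0 in all IL-11+ libraries. Their part in the result was not tested.

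Fibroblast markers were abundant in both groups, with *Dcn* on top and summed levels of 24211, 24294 and 26837 against 42315, 34727 and 31098 normalized CPM. Of these 10 markers, 2 were lower (*Pi16* and *Mfap5*) and 1 higher (median 0.19). *Pi16* had passed the filter through IL-11- libraries alone and its groups overlapped, while *Mfap5* would have passed with either group. With the adjusted p alone 4 were lower and 2 higher (4 and 3 with the block), so the list had no common direction. The most abundant were *Dcn* at 0.67, *Col3a1* at 1.04 (the 1 called higher), *Col1a2* at 0.42 and *Dpt* at -0.96, and the higher count was 0 without IL-11- replicate 1 or with library size only. The lower count was 1 with DESeq2 and 3 with library size only or without IL-11+ replicate 2 or 3. The part of fibroblast content in the KATP values was not tested. Of the endothelial markers, *Esam* and *Tek* were lower and *Eng* was not (sums of 111, 139 and 145 against 68.9, 66.0 and 54.4), but *Pecam1* had 1 tag in all 6 libraries together and *Emcn* was at 0 in IL-11+ fibroblasts. *Esam* and *Tek* had passed the filter through IL-11- libraries alone, and the lower count was 1 when IL-11+ replicate 2 or any of the 3 IL-11- libraries was left out. Of the epithelial markers, *Lgals4* was lower (sums of 31.5, 25.4 and 52.6 against 9.54, 13.2 and 21.9), while *Epcam* had at most 1 tag in a library. *Lgals4* passed the filter through IL-11- libraries alone, and it was not called without IL-11- replicate 3 or IL-11+ replicate 1 or 2, also on the 6-library genes. Immune (13, 21 and 18 tags against 33, 11 and 14, led by *S100a8* with 2, 4 and 2 against 13, 1 and 12, and *Ptprc* at most 7), lymphatic (7, 1 and 14 against 2, 10 and 6, led by *Prox1*, and *Lyve1* at most 3), mesothelial (14, 6 and 27 tags against 0, 0 and 2, led by *Wt1*) and erythroid lists (74, 0 and 318 tags against 15, 0 and 17, led by *Hbb-bs*) had 0 tested genes. With no filter, 3 erythroid and 2 mesothelial genes were called lower, and with 10 tags in at least 1 library 3 and 0 were. No immune or lymphatic gene was called with either of these filters. The part of any of these cell types in the result was not tested.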

How the data were processed

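Cells of the EGFP+ and EGFP- groups gave 3 libraries each, grouped and numbered by their labels. The authors deposited tag counts per gene symbol without normalization, made with Cutadapt 1.18 and Bowtie2 2.2.5 (RefSeq mm10 RNA, a single orientation). How tags with several matching genes were handled is not given in the sources used here. The methods, as printed, exclude genes with many tags, which was read as excluding those with few.

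The 9334 genes that reached 10 tags in 3 or more of the 6 libraries were tested in R 4.3.3 with edgeR 4.0.16 (TMM, library sizes over tested genes, glmQLFit and glmQLFTest, Benjamini-Hochberg adjustment over all tested genes). Same-numbered libraries deviated together from their group means over 5063 genes (r of 0.23, 0.19 and 0.27), so the numbers were taken to pair libraries. The labels do not say whether same-numbered libraries came from the same mouse. Ratios of summed tags have exact Clopper-Pearson intervals at 95%. Ratios to *Abcc9* inside libraries were added after the values were seen. The members and the 16 gene lists (the members included) were chosen with earlier results of these data known.

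Genes named are the members, their measured paralogues, all other mural cell genes, from each further list those with the most tags (up to 4), and the 3 genes nearest to each tested member. Some results under this rule, and the counts of the glial list, are not reported here. Other genes of a list were named where few were called or defined a cell type, after their values were seen. Positions and exons come from GENCODE M21 (GRCm38). Alternatives were RLE, library size only, iterative TMM, DESeq2 1.42.0, other filters, the replicate block, no fold threshold and leaving out each library. The block with no fold threshold, and leaving out a library on the genes that pass with all 6, were added after seeing the data.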

Additional observations from a re-analysis of the deposited data

How the results depend on the processing

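*Cspg4* and *Mcam* were called lower in all 21 alternative settings, with log2 fold changes of -2.49 to -2.20 and -3.09 to -2.74. Settings with no fold threshold change only the call, so their values repeat those of the fit they use. *Ndufa4l2* and *Cox4i2* were called lower in the 18 settings that tested them. Leaving out a library gave 2 to 4 members called lower, and 2 where an IL-11- library was left out, because *Ndufa4l2* and *Cox4i2* then no longer had 10 tags in 3 libraries. On the genes that pass with all 6 libraries, 4 members were lower in each of these fits. *Higd1b* entered without a filter on low counts, with a log2 fold change of -4.30 (adjusted p = 0.000161 by edgeR), and at -4.32 with 10 tags in at least 1 library.

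Without the fold threshold, 2 members (*Kcnj8* at 0.71, *Abcc9* at 0.66) were higher, and so were 638 of all genes. With the replicate block and no fold threshold, the same 2 (0.70 and 0.66) were higher, with 871 higher and 1048 lower genes in all. With the block and the fold threshold, no member changed its call, and 648 genes were lower. The adjusted p of *Kcnj8* ranged from 0.000623 to 0.192 and that of *Abcc9* from 0.000307 to 0.0907 over the 21 settings. *Steap4* ranged from -0.24 to 0.14 when a library was left out and changed sign without IL-11+ replicate 1 (0.14, and 0.14 on the 6-library genes), and the cause was not tested. All genes called lower numbered 341 (without IL-11- replicate 1), 355 (without IL-11- replicate 2) and up to 579 when a library was left out, and 483 to 580 on the 6-library genes. Of the list counts under the alternatives, 65 were marked as moved and 565 were not, a mark that passes over small changes. The 565 include 14 in place of 15 other mural cell genes without IL-11+ replicate 1. They also include 10 in place of 12 smooth muscle genes without IL-11- replicate 2.

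Depth limits *Higd1b*, *Cox4i2* and *Ndufa4l2*, whose IL-11+ levels rest on at most 5 tags. With 3 libraries a group, an exact permutation test cannot go below 0.1. The groups were told apart by the reporter alone, so the type of cell that carried each transcript was not measured.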
